A study of Mus musculus with 50 samples.

Results

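Complexes II to V of the mitochondrial respiratory chain are built from subunits encoded in the nucleus and, for complexes III to V, also in the mitochondrial genome. The set described here holds the nuclear subunit genes, followed in mouse frontal cortex from E14 to P70 and then compared between wild-type and Setd1a+/- mice. Its members are the protein-coding genes of the GENCODE vM21 annotation whose symbol is Sdha, Sdhb, Sdhc, Sdhd or Cyc1, starts with Uqcr or Atp5, or starts with Cox4 to Cox8 followed by a letter. A gene also had to reach 1 CPM (counts scaled by library size) in 5 libraries. Symbols of 49 genes matched and 46 of these passed, out of 55487 genes in the files, of which 21897 are protein-coding. The 46 members are 4 genes of complex II, 9 of complex III, 15 of complex IV and 18 of complex V, and all 46 were among the 16330 protein-coding genes tested.

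The study asked how loss of 1 copy of Setd1a, a gene for a histone H3 lysine 4 methyltransferase, changes cortical RNA during development. Polyadenylated RNA of frontal cortex was sequenced in 50 libraries, 5 replicates of each genotype at each of 5 ages (embryonic days 14 and 18, written E14 and E18, and postnatal days 7, 35 and 70, written P7, P35 and P70). The labels give strain C57BL/6NTac for wild-type and Setd1a+/- groups alike, whereas the methods describe males on a mixed background with C57BL/6J and a tm1d loss-of-function allele. The labels round the embryonic ages down to whole days. Libraries held a median of 38626998.5 counts, with 35507165 in the smallest and 43907318 in the largest.

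Complex II, succinate dehydrogenase, links the citric acid cycle to the chain by passing electrons from succinate to ubiquinone. Complex III passes them on to cytochrome c, complex IV passes them to oxygen, and complex V, the ATP synthase, turns the resulting proton gradient into ATP, on which neurons depend for ion pumping and synaptic transmission. Several subunits of complexes IV and V exist as paralogs that replace one another by tissue, such as the heart and muscle forms of Cox6a, Cox7a and Cox8.

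Of the 3 genes that matched by symbol and did not pass, Cox7b2, a testis paralog of Cox7b, had 227 counts over all libraries, at most 19 in 1 library, and none in 11 libraries. Cox8b, the heart and muscle form of Cox8a, had 81 counts, with at most 10 in 1 library. Cox8c, a testis form, had 2 counts, both in 1 library. A library without a count allows a level of up to 0.0892 CPM, taking 3 counts as the limit. The members just inside the threshold were Cox7a1, with 1 CPM or more in 13 libraries, Cox6a2 in 29 and Cox4i2 in 40. Another 8 genes with matching symbols are annotated as processed pseudogenes and were not included. Atp5o appears as 2 records, and the exons of 1 of them (ENSMUSG00000116933) lie wholly within exons of the other record and of Donson, so these 2 members share their reads.

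The members lie on 18 chromosomes. Chromosome 7, which carries Setd1a, holds 5 of them, and Cox6a2 (chr7:128205435-128206387) is the nearest, 405 kb away. Cox7b is X-linked. Exons of 14 members overlap exons of another gene, and in 12 members 20% or more of the 50-base stretches of the transcript also occur in another gene, whereas 19 members share none. The share was 87.4% for Atp5g2, whose processed pseudogenes Gm10175 and Gm10231 had mean levels of 0.230 and 0.0414 CPM against 61.15 CPM for Atp5g2 itself. It was 84.9% for Atp5l, and 0.0961% for Sdhc. Multi-mapping reads were not counted, which may lower the levels of genes with a high share and of their pseudogenes.

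Setd1a (chr7:127776670-127800122) was checked first, by its CPM after TMM scaling, which is the scale of levels unless another is named. At E14 it was 129, 129.8, 136.5, 119 and 119 in the wild-type libraries and 150.2, 136, 128, 139.7 and 130.1 in the Setd1a+/- libraries. At E18 the values were 93.4, 95.6, 94.6, 85.4 and 100 against 104, 117, 96.95, 104 and 113, and at P7 they were 72.5, 76.2, 70.2, 70.7 and 71.3 against 81.95, 78.3, 76.4, 83.5 and 83.7. Every Setd1a+/- library at P7 lay above every wild-type library, and the groups overlapped at E14 and E18. At P35 the wild-type libraries had 91.7, 82.4, 81.7, 84.6 and 85.2 and the Setd1a+/- libraries 91.9, 88.2, 88.3, 89.4 and 91.6. At P70 they had 84.4, 88.7, 84.8, 81.6 and 92.03 and 81.96, 85.99, 81.5, 76.7 and 97.8, and both of these ages overlapped between genotypes. Over all ages the log2 difference, Setd1a+/- minus wild-type, was 0.10 (adjusted p = 0.00675, edgeR quasi-likelihood test with Benjamini-Hochberg adjustment). The count covers a whole gene of which the allele lacks only a part, and a gene annotated over it (Gm49388) shares its reads, so these levels check the genotype labels only weakly.

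Libraries from 2 wild-type mice go against the stated sex. Replicate 5 at E14 held 60159 counts of Xist, the transcript of the inactive X chromosome, and replicate 2 at E18 held 55644, with at most 11 counts over 4 Y-linked genes. The remaining 48 libraries had at most 27 Xist counts and at least 4711 Y-linked counts. Wild-type replicate 2 at P7 stood apart by its cell type markers. The summed CPM of 5 oligodendrocyte markers (Mbp the most abundant) was 160, 1278, 122, 174.5 and 159.4 in the wild-type P7 libraries, and that of 4 choroid plexus markers (mostly Ttr) was 2.95, 617, 2.295, 2.78 and 2.51. The summed CPM of 7 cortical neuron markers there was 1688, 943, 1763, 1713 and 1728. Replicate 2 was thus the highest in the first 2 lists and the lowest in the neuron list. Results are given with all libraries, and with these 3 libraries left out where that matters.

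The tissue label was checked with the same 7 cortical neuron markers, none of which was at 0 in any group. Their summed CPM in wild-type libraries was 2507, 3029, 3164, 2987 and 2736 at E14 and 2486, 2302, 2656, 2361 and 2337 at P70. The 2 ages overlapped, and the lowest of these 10 libraries had 2302. Slc17a7, the vesicular glutamate transporter, was the most abundant at P7 and later.

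Since many members moved together with age, their promoters are shown for the 3 genes of the ATP synthase c ring, which did not move alike, and for 2 subunits of succinate dehydrogenase. RefSeq sequences (build GRCm38.p6) were matched by symbol for 32 of 45 member symbols. The windows are the 250 bases before the RefSeq transcription start, read 5′ to 3′ on the gene's strand, for Atp5g1 (chr11:96075632-96075881, minus), Atp5g2 (chr15:102671048-102671297, minus), Atp5g3 (chr2:73911327-73911576, minus), Sdha (chr13:74350241-74350490, minus) and Sdhb (chr4:140961021-140961270, plus). Capitals mark matches, on either strand, to the short site TGCGCA or the core GCATGCGC of the factor NRF1, to the ETS site CCGGAAG bound by GABP, or to the YY1 site AAGATGGC. The short site and the core can overlap, as they do in Atp5g2. GENCODE places some starts farther upstream, so the Atp5g2 window lies wholly within the gene annotated there and the windows of Atp5g1, Sdha and Sdhb reach into theirs.
Atp5g1: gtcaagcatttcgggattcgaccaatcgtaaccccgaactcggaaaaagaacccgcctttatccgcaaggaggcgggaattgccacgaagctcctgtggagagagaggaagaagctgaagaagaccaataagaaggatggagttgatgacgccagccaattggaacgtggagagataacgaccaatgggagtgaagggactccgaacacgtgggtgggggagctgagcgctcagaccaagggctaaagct
Atp5g2: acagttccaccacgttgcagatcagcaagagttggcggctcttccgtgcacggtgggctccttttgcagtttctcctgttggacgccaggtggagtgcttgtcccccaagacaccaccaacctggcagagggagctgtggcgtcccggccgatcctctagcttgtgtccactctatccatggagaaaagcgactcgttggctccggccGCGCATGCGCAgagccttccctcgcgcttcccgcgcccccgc
Atp5g3: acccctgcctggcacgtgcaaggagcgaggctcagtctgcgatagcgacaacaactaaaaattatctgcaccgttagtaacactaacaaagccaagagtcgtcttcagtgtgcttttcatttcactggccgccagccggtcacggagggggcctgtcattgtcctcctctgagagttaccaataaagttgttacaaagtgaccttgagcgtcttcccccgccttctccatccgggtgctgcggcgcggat
Sdha: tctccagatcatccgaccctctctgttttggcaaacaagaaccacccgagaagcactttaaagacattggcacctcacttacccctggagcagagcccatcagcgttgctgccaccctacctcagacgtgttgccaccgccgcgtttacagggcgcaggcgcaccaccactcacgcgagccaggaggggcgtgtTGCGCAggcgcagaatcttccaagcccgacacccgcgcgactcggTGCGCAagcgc
Sdhb: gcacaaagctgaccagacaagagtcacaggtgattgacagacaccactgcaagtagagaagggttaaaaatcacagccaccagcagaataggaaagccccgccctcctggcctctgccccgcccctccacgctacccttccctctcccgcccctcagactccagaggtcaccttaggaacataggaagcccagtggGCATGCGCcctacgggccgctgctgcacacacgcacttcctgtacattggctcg

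The short NRF1 site was found in 6 of the 32 members (18.8%) and in 7.36% of 27025 genes with a window of the same length. For the NRF1 core the numbers were 5 of 32 (15.6%) and 2.56%. The ETS site was in 9 of 32 (28.1%) and 7.83%, and the YY1 site in 1 of 32 (3.12%) and 1.83%. Cox6a1 and Atp5l held all but the YY1 site. Windows were not available for Atp5a1, Atp5f1, Atp5mpl, Atp5s, Cox4i1, Cox4i2, Cox6a2, Cox6c, Cyc1, Sdhc, Uqcrb, Uqcrc2 and Uqcrq. A match is a description of letters and binding was not measured.

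The first question was how the subunits changed with age in wild-type cortex. In the edgeR comparison of E14 with P70, 39 of 46 members were higher at P70, against 42.8% of all tested genes, and 1 member, Atp5g2, was lower, against 42.9%. Cox4i2, Cox6a2 and Cox7a1, which are among the 39, reached the threshold of 1 CPM mainly after E14, so their higher level later was favoured by the filter, and the first 2 are also among those that rose from E14 to E18. The median log2 fold change was 0.54 over the members and -0.0019 over all tested genes. From E14 to E18, 22 members rose (31.8% of all genes) and 2, Sdha and Atp5g2, fell (34.1%), with medians of 0.15 and -0.011. From E18 to P7, 32 rose (33.9%) and 2, Cox4i2 and Atp5g2, fell (33.4%), with medians of 0.27 and 0.0012. From P7 to P35, 22 rose (32.6%) and 4 fell (34.3%), namely Sdhd, Cox6b2 and both Atp5o records, with medians of 0.15 and -0.015. Without wild-type replicate 2 at P7, Cox6b2 and 1 Atp5o record were no longer called at this step, and Atp5f1, Cox7a1 and Cox7a2l were. From P35 to P70, 0 members were called by edgeR, limma-voom or DESeq2 (1.06% of all genes by edgeR), and 2 members, Sdha and Uqcrb, had an unadjusted p under 0.05, as did 11.3% of all genes. With scaling by library size alone, the median of all genes was -0.11 both for E14 to P70 and for P7 to P35, and that of the members was 0.43 and 0.065. A level per library counts all cells together, so fewer cells of a type and less RNA per cell cannot be told apart.

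The order of steps differed among members. There were 11 members that rose at each of the first 3 steps and not at the last (23.9%, against 9.41% of all tested genes), 7 of them in complex IV (Cox4i1, Cox5b, Cox6a1, Cox6a2, Cox6c, Cox7b and Cox8a), 3 in complex III (Uqcr10, Uqcr11 and Uqcrb) and Atp5s in complex V. Cox6a2 is counted here although the filter favoured its first 2 steps, and without it there are 10, with 6 in complex IV. Another 8 rose at the first 2 steps only (4.89% of all genes), 6 from E18 onward to P35 (4.95%), 5 from E18 to P7 only (3.29%) and 4 from P7 to P35 only (4.45%). Sdhc, Atp5f1, Cox7a1 and Cox7a2l passed at no single step (6.58% of all genes). In wild-type means, 20 members were highest at P70 (23.1% of all genes), 14 at P35 (14.5%), 9 at P7 (15.8%), 1 at E18 (9.96%) and 2, Sdhc and Atp5g2, at E14 (36.7%). At E14, 35 members were lowest (36.1% of all genes). The order of P35 and P70 rests on means, since no member passed between them.

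Summed over complex IV, the wild-type CPM was 1146, 974, 877, 1181 and 1173 at E14, 1280, 1378, 1295, 1291 and 1277 at E18 and 1684, 1571, 1745, 1717 and 1692 at P7. It was 2150, 2215, 2081, 2129 and 2177 at P35 and 2123, 2085, 2068, 2276 and 2110 at P70. Each age lay wholly above the one before it up to P35, and P35 and P70 overlapped. Among the wild-type E14 libraries, replicates 2 and 3 were the lowest for each of the 4 complexes. The ratio of the P70 mean to the E14 mean was 1.99 for complex IV, 1.64 for complex II, 1.55 for complex III and 1.32 for complex V, and in Setd1a+/- mice it was 1.96, 1.665, 1.51 and 1.33 in the same order. For complex II the wild-type ratio was 1.51 with CPM scaled by library size alone. The summed CPM of complex V, the largest of the 4 sums, had wild-type means of 2721 at E14 and 3599 at P70. Both Atp5o records enter this sum, with means of 111.8 and 123.6 CPM over all libraries, so the reads they share are counted more than once.

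**Figure D1:**
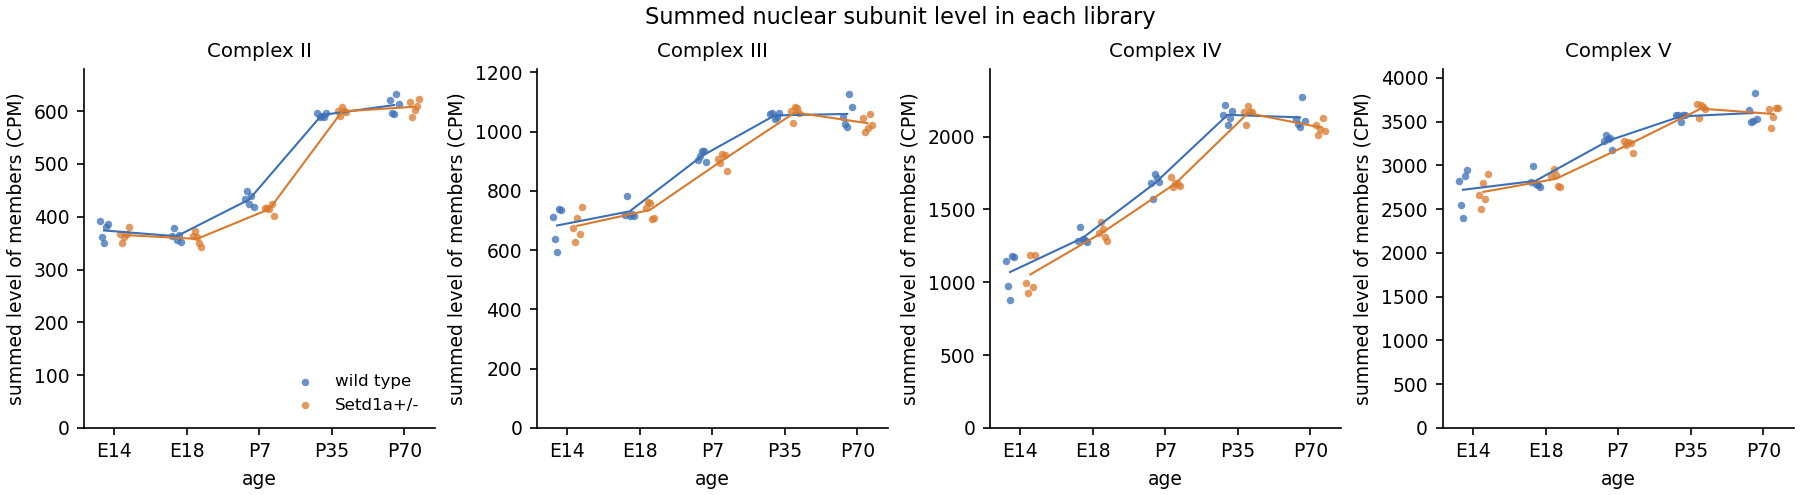
Summed CPM of the members of each complex (vertical axis) by age (horizontal axis), with 1 point per library, wild-type in blue and Setd1a+/- in orange, and lines through the group means. Complex IV runs from a wild-type mean of 1070 at E14 to 2132 at P70, and both genotypes overlap in every panel and age.

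By complex, the members higher at P70 than at E14 were 3 of 4 in complex II, 9 of 9 in complex III, 13 of 15 in complex IV and 14 of 18 in complex V, beside 42.8% of all tested genes, and the median log2 fold changes were 0.33, 0.70, 1.11 and 0.47. From E14 to E18 the members that rose were 1, 4, 10 and 7 in the same order (31.8% of all genes). From E18 to P7 they were 3, 8, 11 and 10 (33.9%), and from P7 to P35 they were 1, 6, 8 and 7 (32.6%). Cox4i2, Cox6a2 and Cox7a1, whose later level the filter favoured, are all in complex IV and among its 13. Cox4i2 and Cox6a2 are among its 10 from E14 to E18, and Cox6a2 is among its 11 from E18 to P7. The counts and the median of complex IV are therefore not on equal terms with those of the other complexes.

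**Figure D2:**
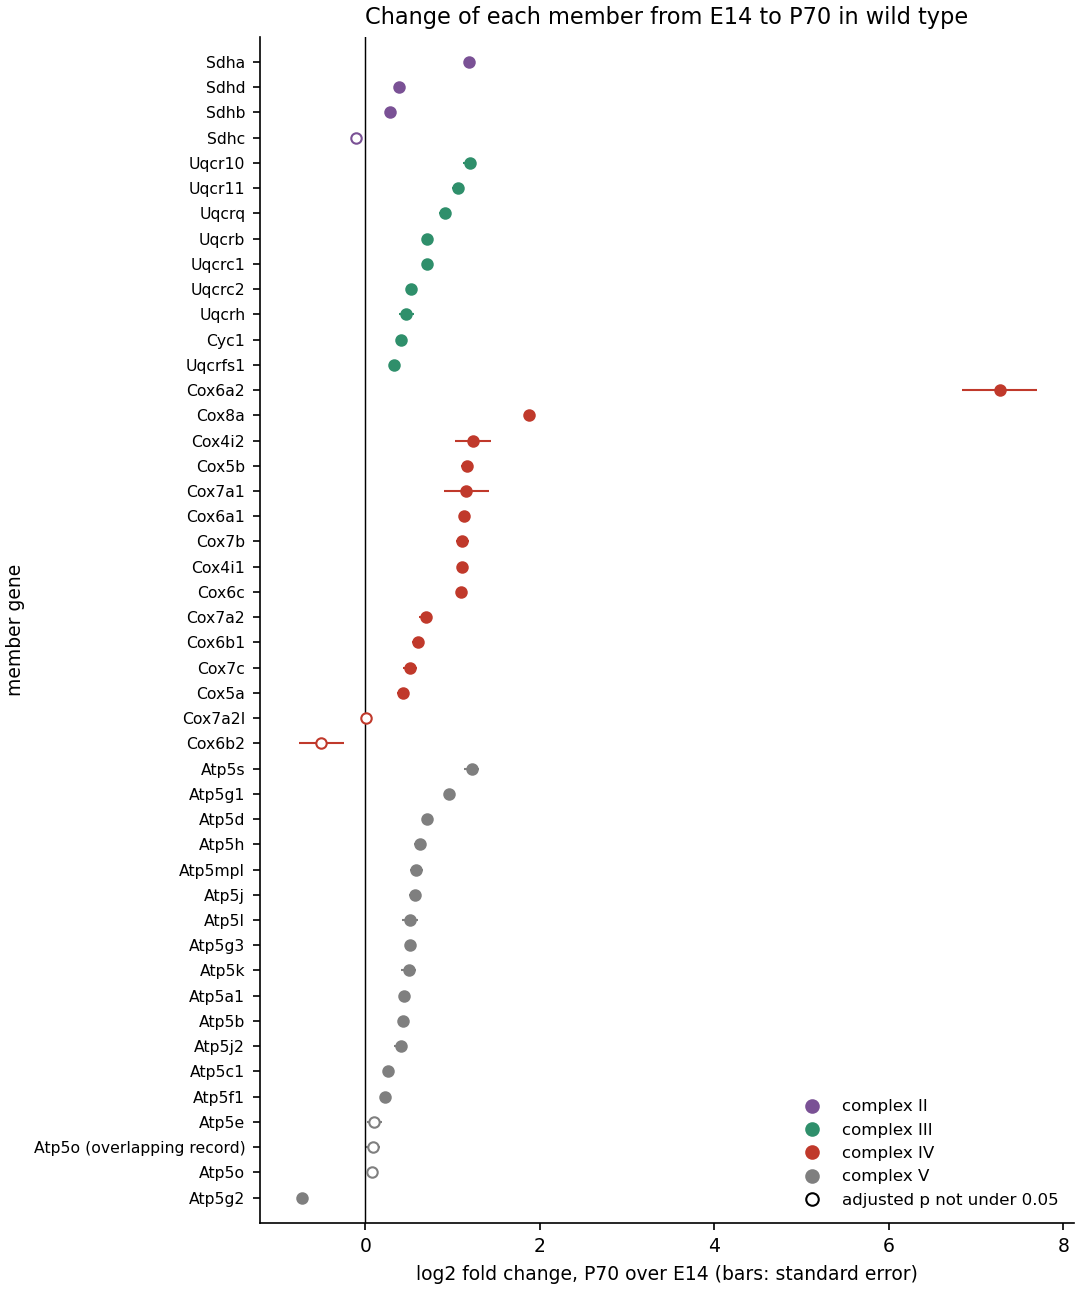
Log2 fold change from E14 to P70 in wild-type cortex (horizontal axis) for each of the 46 members, grouped by complex, with bars of 1 standard error. Filled points had an adjusted p under 0.05, Atp5g2 is the filled point at -0.72, and Cox6a2 lies farthest right at 7.27.

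Sdha, the flavoprotein that oxidises succinate, had the highest level per kilobase of exon in complex II, a mean of 60.9 CPM per kilobase over all libraries. Its CPM in wild-type libraries was 172.5, 167, 165, 161.6 and 163.1 at E14, 157.3 ± 4.37 (SD, n = 5) at E18 and 197, 201.8, 185, 193.6 and 188 at P7. It reached 367, 354, 353, 359 and 359.8 at P35 and 381, 370, 374, 383 and 378 at P70. The first 2 ages overlapped, and every later age lay wholly above the one before. Sdha fell by 0.078 (log2) from E14 to E18 (standard error 0.029, adjusted p = 0.0168), a call lost with library size scaling, with 10 CPM as the minimum, without wild-type replicate 1 at E14 and in the Setd1a+/- arm. It then rose by 0.30 to P7 and by 0.89 to P35 (standard error 0.029, adjusted p = 1.47e-28). The step from P35 to P70, 0.073, did not pass (adjusted p = 0.269).

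Sdhd, 1 of the 2 membrane anchors that hold the ubiquinone site, had 51.15, 46, 41.2, 48.95 and 51.15 CPM at E14, 51.8, 55.3, 51.35, 57.2 and 49.4 at E18 and 74.4, 74.3, 75.9, 76.4 and 69.8 at P7. Its values were 63.85, 64.7, 63.2, 59.1 and 58.9 at P35 and 64.2, 59.55, 60.5, 64.6 and 61.6 at P70. P7 was the highest age, with no overlap with E18 or P35. The steps were 0.15, 0.48 and -0.26 (adjusted p = 9.29e-06 for the last), the first not called without wild-type replicate 3 at E14, and P35 to P70 was 0.0030 and did not pass.

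Sdhc, the other anchor, did not pass at any step, and its wild-type means were 77.6 ± 7.41 (SD, n = 5) at E14 and 72.1 ± 4.82 at P70. From E14 to P70 its log2 fold change was -0.11 (adjusted p = 0.0578). With library size scaling alone it was -0.22, and without wild-type replicate 3 at E14 it was -0.15, both past the threshold, as it was also without the P7 library (-0.11). Sdhb, the iron-sulphur subunit, was 0.28 higher at P70 than at E14, and Sdhd 0.38 higher, so Sdhc was the only member of complex II that was not.

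In complex III, Uqcr11 and Uqcr10, 2 small subunits, had the largest increases. Uqcr11 also had the highest mean per kilobase of the complex, 107 CPM. Its wild-type CPM was 45.9, 37.9, 33.04, 45.7 and 46.4 at E14 and 84.3, 88.55, 80.4, 93.5 and 90.3 at P70, after means of 50.2, 75.7 and 92.8 at E18, P7 and P35. For Uqcr10 the values were 34.8, 28.6, 23.6, 31.9 and 35.6 at E14 and 67.9, 67.75, 67.8, 77.9 and 72.3 at P70. In both genes every P70 library lay above every E14 library. The log2 fold change was 1.065 for Uqcr11 (standard error 0.068, adjusted p = 7.53e-19) and 1.195 for Uqcr10 (standard error 0.076, adjusted p = 4.92e-19). The other 7 members were 0.33 to 0.91 higher. The lowest of these was Uqcrfs1, the Rieske iron-sulphur protein, and Cyc1, cytochrome c1, was 0.41 higher, both named after their values were seen.

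In complex IV, Cox8a, a small subunit, had the second largest increase of all members. Its CPM was 104, 80.7, 80.4, 103 and 103 at E14, 132.2, 130.7, 126, 123 and 109.9 at E18 and 200.5, 186, 197, 196.3 and 199 at P7. Later values were 358, 377, 354, 346 and 352 at P35 and 353, 338, 347, 350.3 and 336 at P70. No adjacent ages overlapped until P35 and P70, which did. The log2 fold change from E14 to P70 was 1.87 (standard error 0.059, adjusted p = 2.52e-30), in steps of 0.40, 0.66 and 0.87.

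Cox6a1, the general form of subunit VIa, had the highest mean level per kilobase of complex IV, 482 CPM with the length of the principal transcript. Its CPM was 176, 150.1, 134, 172 and 166 at E14 and 357, 348.5, 340.3, 356 and 342 at P70, with no overlap and a rise of 1.13 on the log2 scale (standard error 0.055, adjusted p = 2.84e-23). Cox4i1, the general form of subunit IV, went from 203, 169, 156, 206.2 and 204.7 at E14 to 407.5, 397, 386, 444 and 389 at P70. All of its P70 values exceeded all E14 values, by a log2 fold change of 1.11. The X-linked Cox7b rose by 1.11, Cox6b1 by 0.60 and Cox7a2 by 0.69.

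In complex V, Atp5b, the catalytic beta subunit, had the highest mean per kilobase, 216 CPM. Its CPM was 816, 755, 721, 819 and 828 at E14 and 1077, 1039, 1045, 1110 and 1033 at P70. The groups did not overlap, and the log2 fold change was 0.43 (standard error 0.037, adjusted p = 1.77e-14). Atp5s, which the symbol rule takes in as subunit s, had low levels, 6.695, 5.69, 5.84, 6.71 and 7.21 at E14 and 14.6, 13.2, 15.7, 16.3 and 15.1 at P70. It had the largest rise in complex V, 1.22 (standard error 0.088, adjusted p = 4.99e-17), with every P70 value above every E14 value. Its step from E14 to E18 (0.21, adjusted p = 0.0369) was not called by limma-voom, nor without any 1 of wild-type replicates 2 and 3 at E14 and 1, 2, 4 and 5 at E18. Atp5e, the epsilon subunit, and both records of Atp5o, the stalk subunit OSCP, did not pass from E14 to P70, with 0.10, 0.080 and 0.089. These 3 were named after their values were seen.

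The 3 c-ring genes encode the same mature protein with different import sequences. Atp5g2 had 96.1, 79.05, 73.7, 95.01 and 97.35 CPM at E14, 71.7, 76.8, 65.97, 66.55 and 66.9 at E18 and 53.6, 61.9, 50.7, 51.9 and 51.3 at P7. It had 50, 51.6, 50.8, 52.1 and 54.02 at P35 and 54.8, 49.7, 51.2, 60.5 and 51.03 at P70. E14 was the highest age, E14 and E18 overlapped, P7 lay wholly below E18, and later ages overlapped with P7. Atp5g2 fell by 0.34 and by 0.37 at the first 2 steps, and its log2 fold change from E14 to P70 was -0.72 (standard error 0.061, adjusted p = 8.52e-15).

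Atp5g1 moved the other way, with 70.5, 60.2, 56.1, 64.2 and 65.4 CPM at E14, 83.7, 84.7, 80.95, 82.9 and 83.5 at E18 and 132.8, 119, 135, 133.5 and 125 at P7. P70 held 122.5, 122.5, 124, 134 and 114.5. Each of the first 3 ages lay wholly above the one before, and the log2 fold change from E14 to P70 was 0.96 (standard error 0.049, adjusted p = 1.17e-22). Atp5g3 went from 153, 135, 124, 162.2 and 172 CPM at E14 to 207.5, 202.3, 204.2, 236 and 215 at P70, without overlap, a rise of 0.51 (standard error 0.057, adjusted p = 3.22e-11).

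**Figure D3:**
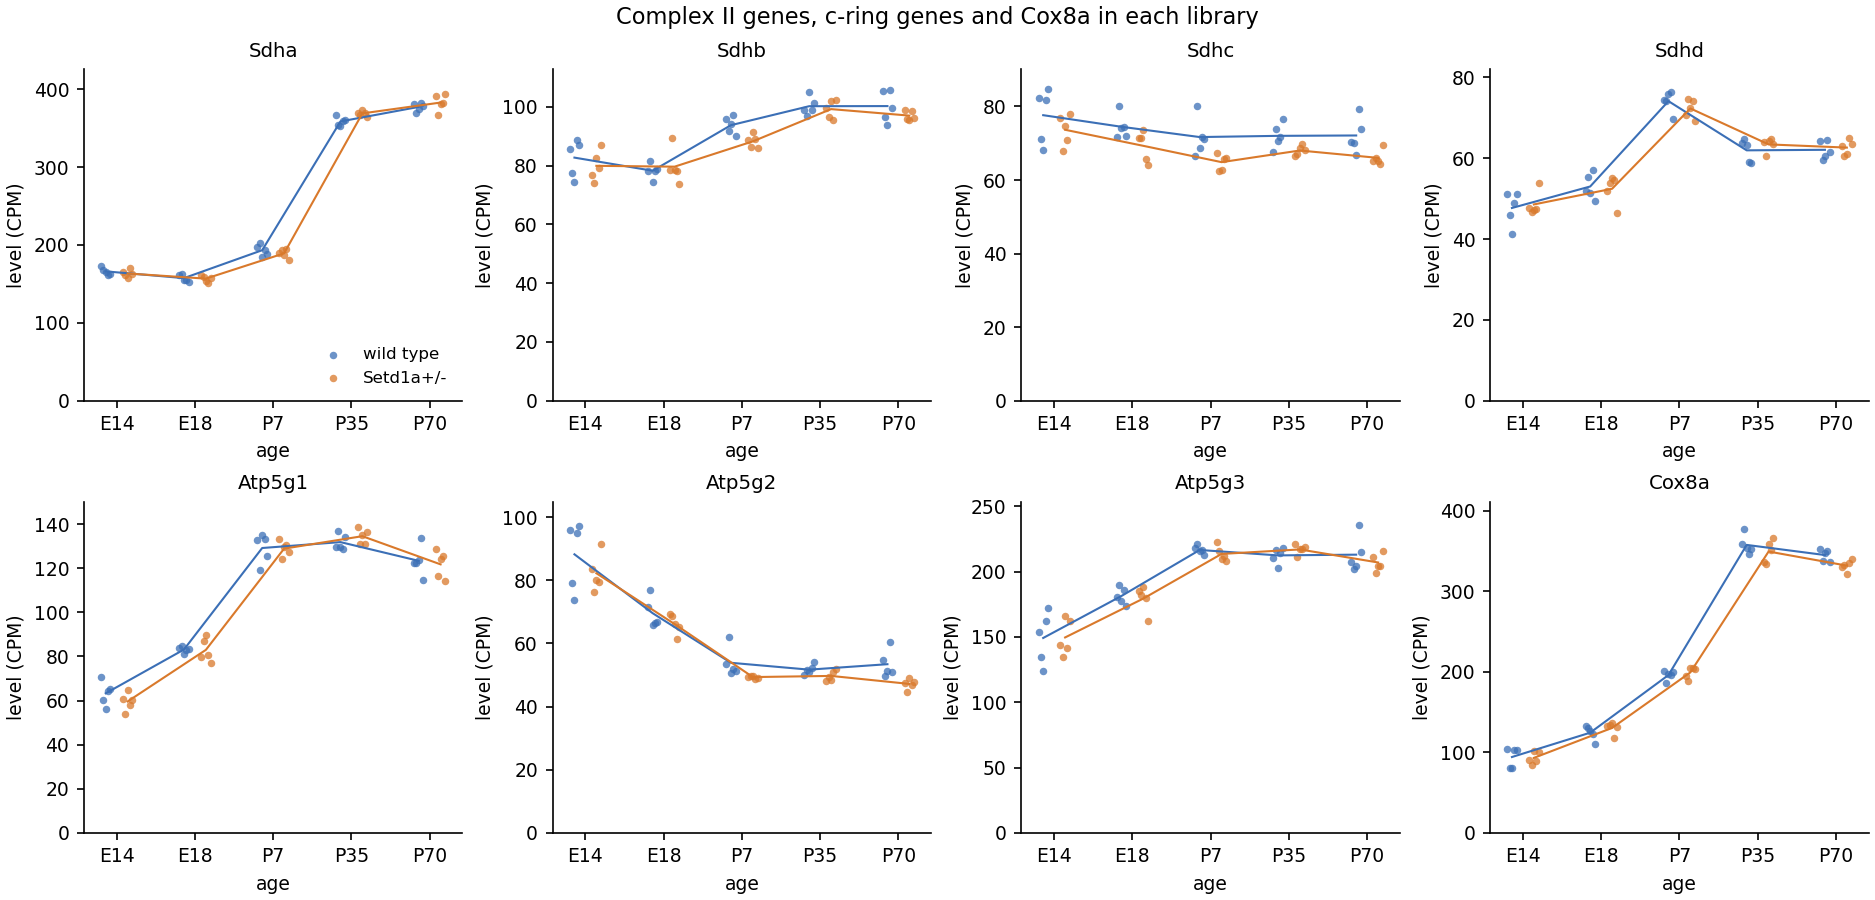
CPM of the 4 complex II genes, the 3 c-ring genes and Cox8a (vertical axes) by age (horizontal axis), 1 point per library, wild-type in blue and Setd1a+/- in orange, with lines through the group means. Sdha and Cox8a climb most between P7 and P35, Sdhd peaks at P7, and Atp5g2 starts at a wild-type mean of 88.3 and ends at 53.4.

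The next question was whether paralogs of 1 subunit replaced each other with age. Shares of a family per kilobase of exon were used to compare levels between genes, and count ratios on the log2 scale within a library, with 0.5 counts added, for the tests. Each adjacent pair of ages was compared in wild-type libraries by a two-sided exact permutation test of 5 against 5, which can give no p below 0.00794, and p were adjusted over 32 such tests of 8 ratios.

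Within the c ring, the wild-type share of Atp5g2 was 40.4, 38.9, 39.25, 39.3 and 38.7 percent at E14, 30.05, 30.5, 28.7, 28.03 and 29.3 at E18 and 20.1, 22.75, 19.3, 19.7 and 19.9 at P7. The shares of Atp5g3 were 49.5, 50.96, 50.6, 51.6 and 52.4 at E14 and 62.85, 62.3, 63.1, 63.01 and 63.4 at P7. Atp5g3 was the largest part at every age, and the shares of each gene at E14 and P7 did not overlap. Multi-mapping reads were not counted, and 87.4% of the 50-base stretches of Atp5g2 occur in other genes, against 11.6% for Atp5g1 and 0% for Atp5g3. The share of Atp5g2 may therefore be too low, and the size of this was not tested. Mean shares of Atp5g2 were 19.9 and 20.6 percent at P35 and P70, and those of Atp5g1 were 9.67 at E14, 16.7 at P7 and 16.3 at P70. The shares depend on the length taken: with the principal transcript, Atp5g2 had 35.2 percent at E14 and 18.4 at P70, and Atp5g1 had 3.94 and 6.59. In plain counts, without length, Atp5g2 had 29.3 percent at E14 and 13.7 at P70 and Atp5g1 had 21.1 and 31.7, so the order of these 2 genes at P70 depends on the scale.

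The log2 count ratio of Atp5g2 to Atp5g3 was -0.67, -0.77, -0.75, -0.77 and -0.82 at E14, -1.33, -1.305, -1.43, -1.48 and -1.37 at E18 and -2.02, -1.83, -2.09, -2.06 and -2.05 at P7. It was lower at each of these ages than at the one before, with no overlap. The difference was -0.63 at both steps (exact permutation p = 0.00794, adjusted p = 0.0212 each), and the later steps, -0.028 and 0.042, did not pass. Without wild-type replicate 2 at P7 the step from P7 to P35 was 0.016. Against Atp5g1, Atp5g2 dropped by 0.73 and by 1.005 at the first 2 steps, both without overlap, and rose by 0.14 from P35 to P70 (adjusted p = 0.0212 for each). In Setd1a+/- libraries this last step was 0.070, with overlap, and did not pass (adjusted p = 0.254). Atp5g1 against Atp5g3 rose by 0.38 from E18 to P7 (adjusted p = 0.0212) and at no other step in wild-type libraries. In Setd1a+/- libraries it also rose by 0.21 from E14 to E18, without overlap (adjusted p = 0.0231).

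Cox6a2, the heart and muscle form of subunit VIa, had 0.0587, 0, 0, 0 and 0.0473 CPM at E14, 0.209, 0.282, 0.226, 0.265 and 0.200 at E18 and 1.80, 1.275, 2.41, 2.80 and 0.939 at P7. It had 4.665, 3.895, 3.26, 4.06 and 4.18 at P35 and 3.58, 3.985, 4.39, 4.29 and 2.62 at P70. Each age up to P35 lay wholly above the one before, and P35 and P70 overlapped. Over the 5 wild-type libraries there were 4 counts at E14 and 660 at P70, a scaled ratio of 178.5 with a 95% counting interval of 69.4 to 657. No wild-type library at E14 or E18 reached 1 CPM, so the gene entered the set through the later ages and had to differ from the earlier ones. The log2 count ratio to Cox6a1 differed by 2.87 and 2.37 at the first 2 steps, given as a description only, and the first size also depends on the 0.5 counts added, with 3 E14 libraries at 0. It rose by 0.93 from P7 to P35 (exact permutation p = 0.00794, adjusted p = 0.0212). Its share of the Cox6a pair per kilobase went from 0.0128 percent at E14 to 1.10 percent at P70, so Cox6a1 remained the main form. In Setd1a+/- libraries the first difference was 2.05, with overlap.

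Other muscle and interneuron genes moved over the same ages. Of 8 skeletal and cardiac muscle markers, 6 were tested and 5 were higher at P70 than at E14, and their summed wild-type CPM was 7.52, 7.73, 5.14, 4.57 and 4.09 at E14 and 36.5, 36.9, 35.6, 34.96 and 36.1 at P70. Myh7 was the most abundant, 5 of the 8 were under 1 CPM at P70 and Actc1 was at 0 there. Of 5 markers of parvalbumin interneurons, 4 were higher, with sums of 271, 246, 205.9, 175 and 124 at E14 and 465, 451, 506, 399.8 and 406 at P70 and Kcnc1 the most abundant at P70. Both sums were higher in every P70 library than in any E14 library. Their part in the course of Cox6a2 was not tested.

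Cox4i2, the lung form of subunit IV, had 0.705, 0.786, 0.655, 0.622 and 1.18 CPM at E14, 2.17, 1.33, 1.905, 1.85 and 1.42 at E18 and 1.36, 1.15, 1.11, 1.27 and 1.19 at P7. Its values were 1.49, 1.38, 1.73, 1.35 and 2.11 at P35 and 1.89, 2.32, 1.75, 1.78 and 1.61 at P70. E18 lay wholly above E14 and then overlapped with P7. Only 1 wild-type library at E14 reached 1 CPM, so the step from E14 to E18 was favoured by the filter and is given as a description only, 1.13 in CPM and 0.86 for the log2 ratio to Cox4i1, where the groups overlapped. From E18 to P7 the gene fell by 0.51 (adjusted p = 0.0194) and the ratio dropped by 0.81 (adjusted p = 0.0212, exact permutation test). In Setd1a+/- libraries the ratio differed by 0.13 at the first step and by -0.42 at the second, with overlap (adjusted p = 0.0391). In CPM neither step was called in the Setd1a+/- arm, and the fall to P7 was not called without wild-type replicate 1 at E18. Its share of the pair was 0.823 percent at E14, 1.49 at E18 and 0.902 at P70.

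Of 9 mural cell markers, 8 rose from E14 to E18, and their summed wild-type CPM was 112, 122, 131.7, 113 and 135 at E14 and 237, 169.6, 337, 306 and 157.2 at E18, with Rgs5 the most abundant. Replicates 1, 3 and 4 at E18 had the highest sums and also the highest Cox4i2. The same 3 libraries were also the highest for 4 endothelial markers (mostly Cldn5), with sums of 165, 113, 251, 201 and 116, and for 4 markers of fibroblasts and meninges (mostly Col1a2), with 519, 195.9, 425, 403 and 46.7. In each of these 2 lists 3 of 4 genes rose from E14 to E18. Setd1a+/- replicate 2 at E14 had sums of 455 (mural), 348 (endothelial) and 886 (fibroblast and meningeal) and a Cox4i2 level of 1.69 CPM, the highest of its group in all 4. None of the genes in the 3 lists was at 0, and their part in the level of Cox4i2 was not tested.

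Cox7a2l, which joins complexes III and IV, did not pass at any step in CPM, and Cox7a2, the general form of subunit VIIa, rose. The log2 count ratio of Cox7a2l to Cox7a2 was 0.89, 0.92, 0.89, 0.94 and 0.88 at E14, 0.67, 0.68, 0.65, 0.48 and 0.72 at E18 and 0.48, 0.48, 0.45, 0.41 and 0.38 at P7. It was 0.22, 0.16, 0.14, 0.031 and 0.17 at P35. The ratio was lower at each later age up to P35, with an overlap between E18 and P7 only. The steps were -0.26 and -0.20 and -0.30 (adjusted p = 0.0212, 0.0363 and 0.0212, exact permutation tests), and P35 to P70 was 0.073 and did not pass. Cox7a2l made up 53.9 percent of the family per kilobase at E14 and 41.96 percent at P70. Cox7a1, the muscle form, made up 0.922 and 1.56 percent. It was 1.16 higher at P70 than at E14, from 107 counts to 221 (ratio 2.23, 95% counting interval 1.77 to 2.84), and its ratio to Cox7a2 passed at no step. It reached 1 CPM mostly at P35 and P70, so the filter on low counts favoured a higher level there.

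Cox6b2, the testis form of subunit VIb, had 2.04, 5.74, 2.10, 2.21 and 2.51 CPM at P7 and 1.34, 1.99, 1.70, 1.24 and 2.54 at P35. Wild-type replicate 2 at P7, the library with high oligodendrocyte and choroid plexus markers, was the highest, and the groups overlapped. The step from P7 to P35 was -0.73 in CPM (adjusted p = 0.0128), a call that was lost without this library and in the Setd1a+/- arm. Without it the step of the log2 ratio to Cox6b1 was -0.39. With all libraries that ratio did not pass here (-0.69, adjusted p = 0.127, exact permutation test) or at any other step in wild-type libraries, whereas in Setd1a+/- libraries it fell by 1.04 from E14 to E18, with overlap (adjusted p = 0.0391). From E14 to P70 Cox6b2 did not pass (-0.51, adjusted p = 0.0685), but did with library size scaling (-0.62), without the P7 library (-0.51) and without replicate 2 at E14 (-0.63). Cox7b2 was at most 1.30 percent of the Cox7b pair and Cox8b at most 0.142 percent of the Cox8 family in any wild-type P70 library, so Cox7b and Cox8a made up nearly all of their families.

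**Figure D4:**
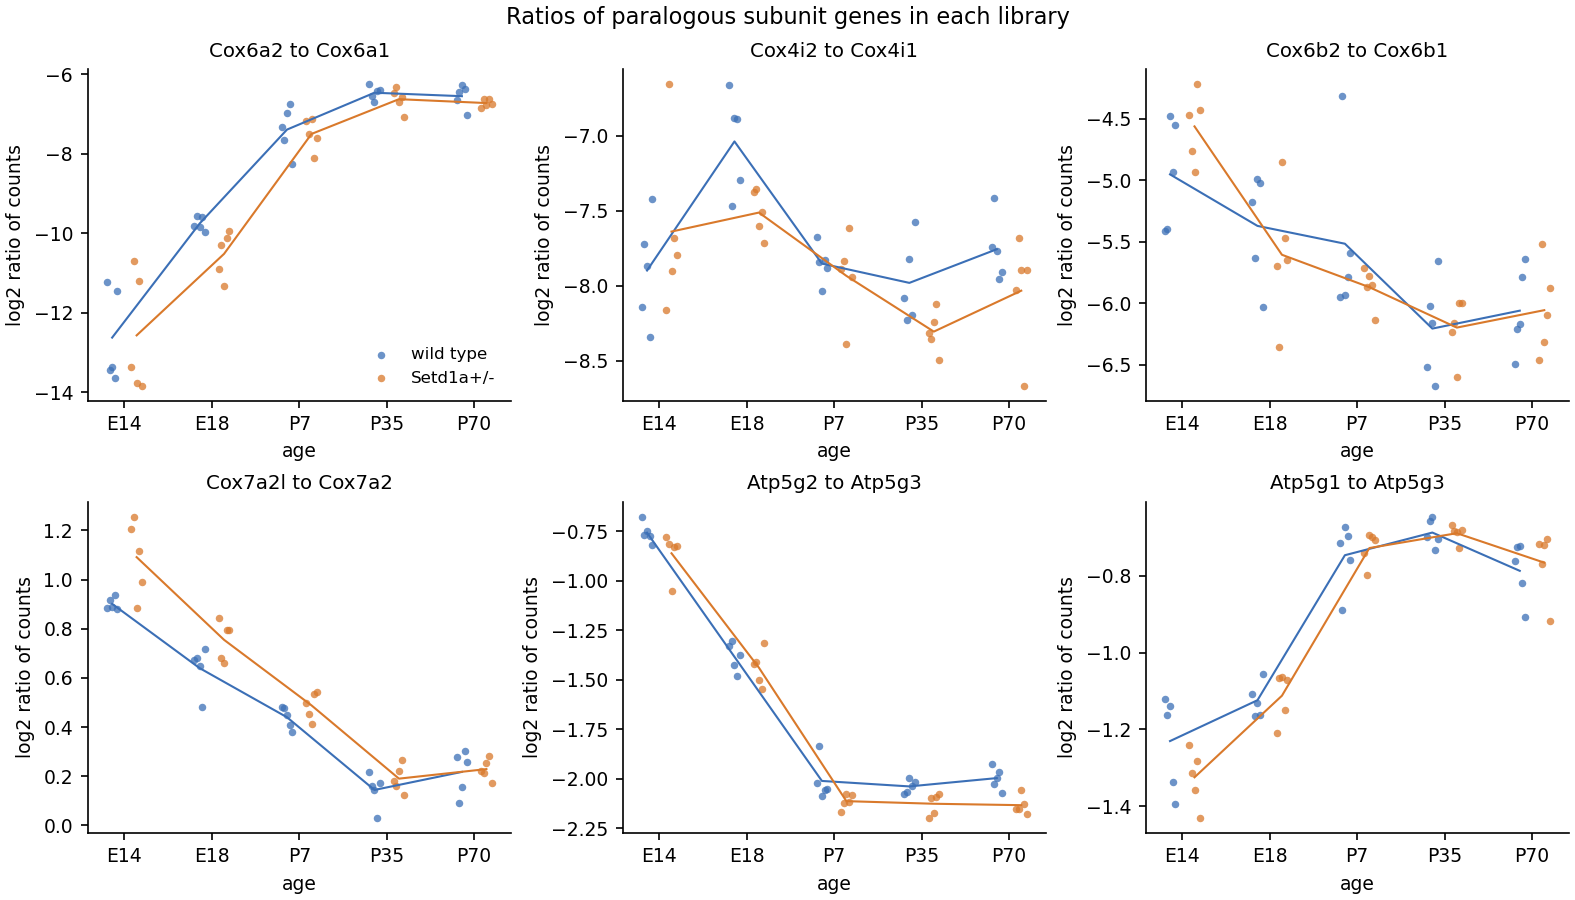
Log2 count ratio of paralog pairs (vertical axes) by age (horizontal axis), 1 point per library, wild-type in blue and Setd1a+/- in orange, with lines through the group means. Cox6a2 to Cox6a1 climbs from a wild-type mean of -12.63 at E14 to -6.46 at P35, and Atp5g2 to Atp5g3 drops from -0.76 to -2.01 between E14 and P7.

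Genes that act on the same complexes were taken from lists of 59 genes, 58 of them tested. From E14 to P70 in wild-type cortex, all 6 mitochondrially encoded subunits of complexes III to V were higher. The rise was 1.76 for mt-Co1 and 1.42 for mt-Cytb, at wild-type P70 means of 12530 and 5359 CPM. In contrast, mt-Co2, mt-Co3, mt-Atp6 and mt-Atp8 were under 10 CPM, so their rise rests on low counts. Multi-mapping reads were not counted, and their part in these low levels was not tested. Cycs, somatic cytochrome c, was 0.85 higher, Cyct, its testis form, was not tested, and Ndufa4, a complex IV subunit outside the symbol rule, was 1.12 higher. Assembly factors moved both ways, with 2 higher and 1 lower of 4 for complex II, 5 and 0 of 6 for complex III, 15 and 7 of 25 for complex IV, and 3 and 1 of 4 for complex V. Of 11 regulators of these genes, 3 were higher and 8 lower. Of all tested genes 42.8% were higher and 42.9% lower in this comparison. The coactivators Ppargc1a and Ppargc1b were 2.06 and 3.76 higher, whereas Nrf1 was at -1.74 and the GABP subunits Gabpa and Gabpb1 at -0.55 and -1.54, all called.

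Other cell type lists moved over the same ages, and their part in the developmental course was not tested. Higher and lower genes from E14 to P70 were 1 and 6 of 7 for cortical neurons, 6 and 2 of 9 for mural cells, 2 and 0 of 4 for endothelium, 5 and 0 of 5 for astrocytes, 5 and 0 of 5 for oligodendrocytes, and 4 and 0 of 4 for microglia. They were 0 and 6 of 6 for progenitors, 0 and 0 of 4 for fibroblasts and meninges, 1 and 3 of 4 for choroid plexus and 0 and 5 of 5 for erythroid cells. The oligodendrocyte sum was 53.8, 56.25, 49.6, 48.1 and 39.7 CPM at E14 and 3927, 3934, 3251, 3758 and 3829 at P70 in wild-type libraries, with Mbp the most abundant. The progenitor sum was 1159, 969, 1242, 1271 and 1408 at E14 and 75.8, 75.3, 63.9, 89.6 and 79.5 at P70, with Top2a the most abundant at E14 and Sox2 at P70. Astrocyte markers, mostly Slc1a3 and later Aldoc, summed to means of 266 and 1574, and microglial markers, mostly Csf1r, to 36.8 and 183. None of the genes of these 4 lists was at 0 in every library of a wild-type group.

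The last question was what genotype changed. With age taken as a covariate, 2 of 46 members were called by edgeR, 4.43% of all tested genes being called, and both were lower in Setd1a+/- cortex, against 3.75% of all genes. They were Sdhc and Atp5g2, and limma-voom and DESeq2 also called 2 members. The share of members called, 4.35%, was near that of all genes, and 7 members had an unadjusted p under 0.05 (14.5% of all genes did). The median log2 fold change was -0.016 over the members and 0.0013 over all tested genes, and 34 of 46 members lay below 0 (49.1% of all genes did). Without the Xist libraries these medians were -0.0058 and -0.0013. With the P7 library that stood apart also left out they were -0.0058 and 0.00069. For the interaction of age and genotype edgeR called 0 members (0% of all genes), as did limma-voom and DESeq2, and 0 members had an unadjusted p under 0.05 (6.72% of all genes did).

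At single ages edgeR called 0 members throughout. Of all tested genes it called 0.129% at E14, 0.110% at E18 and 0.735% at P7, then 0% of genes at P35 and 0.233% at P70. Counts at an unadjusted p under 0.05 were 1, 2, 2, 0 and 4 members in the same order, beside 11.6%, 11.4%, 8.87%, 3.37% and 6.55% of all genes, and limma-voom and DESeq2 called 0 at every age. Those at P70 were Sdhc, Atp5g2, Uqcr10 and Atp5k, the last named after its value was seen.

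**Figure D5:**
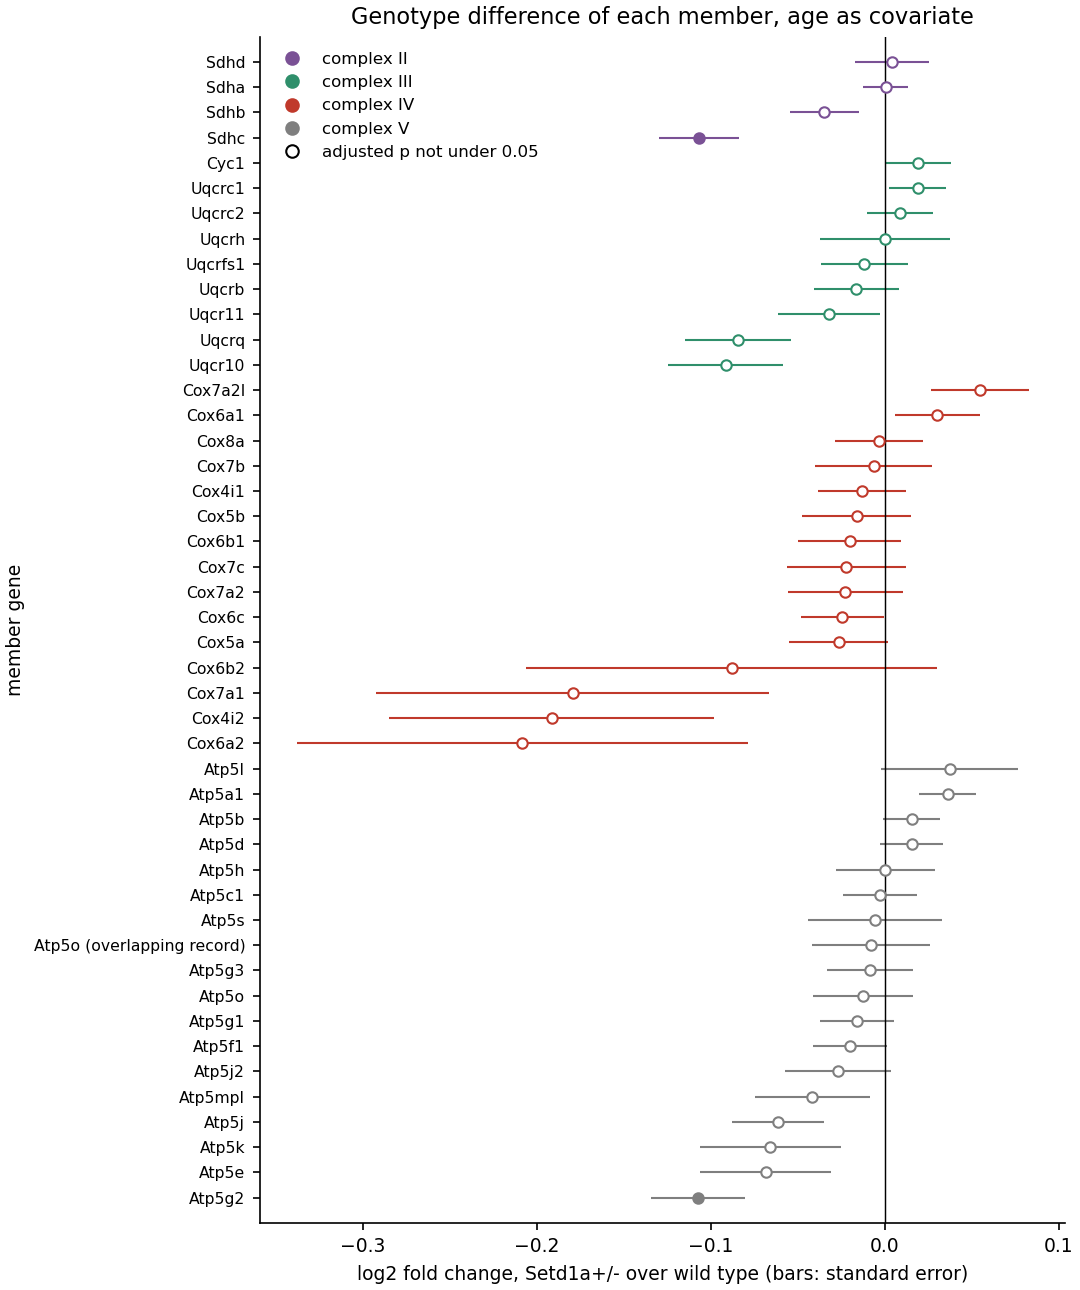
Log2 fold change of Setd1a+/- over wild-type with age as covariate (horizontal axis) for the 46 members, grouped by complex, with bars of 1 standard error. Filled points, Sdhc and Atp5g2 at -0.11 each, had an adjusted p under 0.05.

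Sdhc, the membrane anchor of complex II, had 82.2, 71.1, 68.3, 81.9 and 84.7 CPM in wild-type libraries and 76.85, 67.9, 74.8, 70.9 and 77.9 in Setd1a+/- libraries at E14. At E18 the values were 71.7, 80.1, 74.2, 74.5 and 71.95 against 71.5, 71.4, 73.7, 65.7 and 64.2. The genotypes overlapped at both ages, with 4 and 5 of the 5 Setd1a+/- libraries below the wild-type mean. At P7 they were 66.5, 80.2, 68.8, 71.7 and 71.1 against 67.4, 62.55, 62.6, 65.8 and 65.9, and at P35 67.5, 73.8, 70.5, 71.7 and 76.6 against 66.5, 67.1, 68.6, 69.7 and 68.1. P70 gave 70.4, 70.1, 66.7, 79.4 and 73.9 against 65.2, 66.1, 65.2, 64.2 and 69.45. All 5 Setd1a+/- libraries were below the wild-type mean at each of these 3 ages, and the groups overlapped at each. The differences of the means were -5.11%, -6.96%, -9.53%, -5.53% and -8.45% from E14 to P70. The log2 fold change with age as covariate was -0.11 (standard error 0.023, adjusted p = 0.00166), and the interaction had an unadjusted p of 0.871 (edgeR). Sdhc passed in 61 of 61 settings, with adjusted p of 0.000417 to 0.00798, the highest without the 3 libraries that stood apart.

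Atp5g2 had 83.6, 76.5, 80.02, 79.6 and 91.65 CPM at E14 in Setd1a+/- libraries and 69.2, 68.6, 66.3, 61.4 and 65.2 at E18, beside the wild-type values given for its course. At P7 the Setd1a+/- values were 49.5, 49.6, 49.8, 48.8 and 49.1, at P35 48.15, 49.35, 48.3, 50.95 and 51.8 and at P70 47.6, 44.7, 49.1, 46.7 and 47.8. Setd1a+/- libraries lay wholly below wild-type libraries at P7 and P70, and overlapped with them at E14, E18 and P35. The means differed by -6.80%, -4.95%, -8.40%, -3.85% and -11.7% from E14 to P70. The 3 libraries that stood apart were each the highest wild-type library of their age for Atp5g2. At P7 that library had 61.9 CPM, against 50.7 to 53.6 in the other wild-type libraries. The differences at E14, E18 and P7 are therefore smaller in size without them. Its log2 fold change was -0.11 (standard error 0.027, adjusted p = 0.00902), with an interaction p of 0.648 (edgeR, unadjusted). It passed in 61 of 61 settings with adjusted p of 0.00173 to 0.0427, again highest without the 3 libraries.

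The log2 count ratio of Atp5g2 to Atp5g3, which needs no scaling between libraries, was -2.17, -2.12, -2.07, -2.12 and -2.08 in Setd1a+/- libraries at P7 and -2.15, -2.15, -2.06, -2.13 and -2.175 at P70. At P70 the wild-type ratios were -1.92, -2.03, -1.995, -1.96 and -2.07. The Setd1a+/- ratios at P70 lay below the wild-type ratios in all but 1 library, replicate 3, which fell between them. Over all ages the log2 ratio differed by -0.097, Setd1a+/- minus wild-type (two-sided permutation within age, p = 1e-05, the smallest the permutations can give, adjusted p = 8e-05 over 8 ratios), and the difference was below 0 at 5 of 5 ages. Against Atp5g1 it was -0.088 (permutation p = 0.00101, adjusted p = 0.00269), below 0 at 5 of 5 ages. Atp5g1 to Atp5g3 did not pass (-0.0089, permutation p = 0.673).

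Cox7a2l to Cox7a2 was the other ratio that passed, and it was higher in Setd1a+/- libraries. Its values there were 1.21, 1.26, 0.89, 1.11 and 0.99 at E14 and 0.84, 0.68, 0.66, 0.79 and 0.79 at E18. At E14, 4 of these 5 lay above every wild-type library, and at later ages the genotypes overlapped. The mean difference was 0.082 (permutation p = 0.00083, adjusted p = 0.00269), with 0.19, 0.11, 0.048, 0.046 and 0.011 from E14 to P70, above 0 at 5 of 5 ages. In CPM neither gene was called. The ratios of Cox4i2 to Cox4i1 (-0.18, permutation p = 0.0565, adjusted p = 0.113), Cox6a2 to Cox6a1 (-0.23, p = 0.236), Cox7a1 to Cox7a2 (-0.14, p = 0.249) and Cox6b2 to Cox6b1 (-0.037, p = 0.759) did not pass.

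Uqcr10 and Uqcrq, small subunits of complex III, had the next smallest p, and Uqcrq was named after its value was seen. Uqcr10 had 65.7, 62.8, 65.1, 64.4 and 62.3 CPM at P35 and 62.1, 63.95, 64.1, 65.01 and 58.6 at P70 in Setd1a+/- libraries. The wild-type P35 values were 67.03, 72.6, 68.3, 69.1 and 66.6. Setd1a+/- libraries lay wholly below wild-type libraries at P35 and P70 and overlapped at E14, E18 and P7. Over all ages Uqcr10 was at -0.091 (adjusted p = 0.121, range over alternatives 0.0180 to 0.217) and Uqcrq at -0.084 (adjusted p = 0.121, range 0.0275 to 0.213). Without wild-type replicate 3 at E14, the library with the lowest complex sums of its group, both passed (adjusted p = 0.0180 and 0.0275) and 4 members were called. Without Setd1a+/- replicate 5 at E14, Uqcr10 passed and 3 members were called. The share of all genes called in these fits, and in the other fits with a library left out, is not given.

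The summed CPM of a complex overlapped between genotypes at every age. The difference largest in percent, with all libraries, was that of complex II at P7. Wild-type libraries there had 434, 448, 424, 439 and 419 and Setd1a+/- libraries 417, 417, 414, 424 and 401. Only Setd1a+/- replicate 4 lay above the lowest wild-type library. With all libraries, differences of the means over all complexes and ages ran from -4.2% here to 3.06% for complex IV at E18. Wild-type replicate 2 at E18, which carries Xist, had 1378 for complex IV, against 1277 to 1295 in the others. That library lowers the 3.06%, so which of these 2 differences is the larger in size depends on it.

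Of the 58 other tested genes of the pathway lists, 8 were lower and 1 higher in Setd1a+/- cortex with age as covariate, where 3.75% of all tested genes were lower and 4.43% were called in all. The lists were chosen with earlier results of these data known, so these counts are a description and no independent test. By list these were 1 of 4 for complex II, 2 of 6 for complex III, 4 lower and 1 higher of 25 for complex IV, and 1 of 4 for complex V, and 0 of the regulators, mitochondrially encoded subunits, cytochrome c and Ndufa4. Sdhaf4, which helps to join Sdha to Sdhb, had 14, 13.4, 13.4, 14.6 and 13.9 CPM in wild-type and 11.5, 11.9, 9.23, 11.5 and 11.9 in Setd1a+/- libraries at P70. The 2 groups did not overlap here or at P7, and did at E14, E18 and P35. The log2 fold change over all ages was -0.25 (adjusted p = 2.79e-05, range over alternatives 3.91e-07 to 0.000203). Coa3, which acts on the translation and assembly of mt-Co1, had 51.9, 56.7, 52.45, 61.5 and 54.05 and 48.8, 48.8, 44.7, 50.3 and 42.4 at P70. These did not overlap, nor did those at P35, and the genotypes overlapped at E14, E18 and P7. The log2 fold change was -0.17 (adjusted p = 0.000136, range 8.00e-06 to 0.000498).

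Bcs1l, which inserts the Rieske protein into complex III, was at -0.14 (adjusted p = 8.46e-05, range 5.23e-06 to 0.00103). Cox15, an enzyme of heme A synthesis, was at -0.10 (0.000142, range 2.56e-05 to 0.00323), and the copper chaperone Cox17 at -0.13 (0.00467, range 0.000946 to 0.0231). Taco1, a translational activator of mt-Co1, was at -0.13 (0.00332, range 0.00135 to 0.0149), and Atpaf2, an assembly factor of complex V, at -0.093 (0.00311, range 0.00117 to 0.0184). These 5, like Sdhaf4 and Coa3, passed in 61 of 61 settings. Lyrm7, a chaperone of the Rieske protein, was at -0.17 (adjusted p = 0.0384, range 0.0109 to 0.0708) and passed in 39 of 61. Lrpprc, which stabilises mitochondrial messenger RNA, was at 0.058 (adjusted p = 0.0324, range 0.00682 to 0.0565) and passed in 54 of 61. The call of Lyrm7 was lost without any 1 of wild-type replicates 1, 2 and 3 at E14, 4 and 5 at E18, 1 and 3 at P7, 3 and 4 at P35 and 1, 4 and 5 at P70, or of Setd1a+/- replicates 1 and 2 at E14, 1, 3 and 5 at E18, 2 and 3 at P7, 4 at P35 and 2 and 3 at P70. The call of Lrpprc was lost without wild-type replicate 1 at P7 or 4 at P35, without Setd1a+/- replicate 3 at P7, 5 at P35 or 5 at P70, and with library size scaling or no filter on low counts.

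None of the genes of the 12 cell type lists was called by genotype with age as covariate, by edgeR. The median log2 fold changes farthest from 0 were -0.87 for choroid plexus (Ttr at -2.57, adjusted p = 0.278, and Folr1 at -1.36, adjusted p = 0.175), 0.40 for fibroblasts and meninges and -0.34 for oligodendrocytes. The choroid plexus sums at E18 were 4.94, 4.95, 231.5, 192.2 and 9.21 CPM in wild-type and 5.05, 1.90, 3.74, 4.425 and 3.22 in Setd1a+/- libraries. Wild-type replicates 3 and 4 were far above the rest there, as replicate 2 was at P7. The part of these cells in the genotype results was not tested.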

How the data were processed

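The analysis starts from the gene counts the authors deposited, made with Trimmomatic, FastQC, STAR and featureCounts v1.4.6-p2 (unstranded, exons summed by gene, multi-mapping reads not counted) on GRCm38 with the Ensembl release 102 annotation. Versions of the first 3 tools were not given. Gene types came from GENCODE M21. Levels are TMM-scaled CPM. Tests used edgeR 4.0.16 quasi-likelihood in R 4.3.3 with Benjamini-Hochberg adjustment over 16330 protein-coding genes, at an adjusted p under 0.05. limma 3.58.1 voom and DESeq2 1.42.0 were the other tools. Ratios were tested in Python 3.11.15 with NumPy 2.4.6, pandas 2.3.3 and SciPy 1.17.1, by all 252 splits of 5 against 5, or by 100000 permutations of genotype within age. Figures used Matplotlib 3.10.9.

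Members and lists were chosen with earlier results of these data known. Genes were named by rule: every member of a paralog family, every member called by genotype, in each complex the member highest per kilobase and the 2 called members with the largest change in each direction, and every gene of the pathway lists called by genotype. Lists were assembly factors of complexes II, III, IV and V, cytochrome c, mitochondrially encoded subunits, regulators, Ndufa4 and 12 cell type lists (cortical neurons, parvalbumin interneurons, mural cells, endothelium, astrocytes, oligodendrocytes, microglia, progenitors, skeletal and cardiac muscle, fibroblasts and meninges, choroid plexus, erythroid cells).

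Alternatives were DESeq2 size factors, library size only, 10 CPM in 5 libraries, no filter, limma-voom, DESeq2, leaving out the Xist libraries or the P7 library, replicate as a block, RNA integrity as a covariate, each library left out, the Setd1a+/- arm for age steps, and an absolute log2 fold change of 1 or more. Chosen after the data were seen were leaving out all 3 libraries for counts and sums, the principal transcript length, and the ratios Cox7a1 to Cox7a2, Atp5g2 to Atp5g1 and Atp5g1 to Atp5g3. Counting intervals and floors cover counting error only.

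Limits: bulk RNA carries no protein, enzyme activity or cell of origin. Each group has 5 libraries, counts per gene do not separate transcripts, and poly-A capture may take up mitochondrial transcripts unevenly, which was not tested. Multi-mapping reads were not counted, so levels of genes with near copies, nuclear or mitochondrial, may be too low, which was not tested either. No protein sequences and no promoter windows for 13 symbols were available, and raw reads were not used. The level of 1 marker gene is not reported here.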

Additional observations from a re-analysis of the deposited data

Results flagged for a closer look

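Within each group of 5, the library farthest from the others was compared by its gap over the range (Dixon, threshold 0.71) in 110 groups, and 9 groups passed, where chance gives about 1 in 20. Wild-type E18 replicate 2, which carries Xist, had high sums for complex III (781.8 CPM against 713.8 to 723.2, gap 0.862), complex IV (1378 against 1277 to 1295, 0.816) and complex V (2993 against 2752 to 2808, 0.769). Wild-type P70 replicate 4 had 2276 for complex IV (2068 to 2123 in the others, 0.736), and wild-type P35 replicate 3 had 3492 for complex V (3573 to 3581, 0.9165). Wild-type P7 replicate 2 had 61.9 CPM of Atp5g2 (50.7 to 53.6, 0.740), a log2 ratio of Cox6b2 to Cox6b1 of -4.32 (-5.945 to -5.59, 0.784) and of Atp5g2 to Atp5g3 of -1.83 (-2.09 to -2.02, 0.746). Setd1a+/- E14 replicate 3 had an Atp5g2 to Atp5g3 ratio of -1.05 (-0.83 to -0.78, 0.825). The cause was not tested.

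Xist counts of 60159 in wild-type E14 replicate 5 and 55644 in wild-type E18 replicate 2 go against the stated male sex. No library was removed from the results given first.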

How the results depend on the processing

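Over 417 alternatives for the fold changes of named genes from E14 to P70 and by genotype, 405 left the result as it was, 4 weakened it, 8 strengthened it and 0 reversed it. Single steps are not in this tally, and calls lost there are given with each gene. Family shares depend on the length scale, and 36 of 68 moved. With an absolute log2 fold change of 1 or more, 2, 1 and 1 members passed at the first 3 steps. Cox6a2 was the member at each step, with Cox4i2 beside it at the first. The filter favoured the first 2 steps of Cox6a2 and the first step of Cox4i2. The share of all genes at this threshold is not given. In the Setd1a+/- arm, Cox4i2 to Cox4i1 was 0.13 from E14 to E18 and -0.37 from P7 to P35, Cox6b2 to Cox6b1 was -1.04 and -0.33 at the same steps, and Atp5g2 to Atp5g3 was -0.0072 from P35 to P70 (reversed). Without the 2 Xist libraries and the P7 library, Cox7a2l to Cox7a2 was -0.20 from E18 to P7, Atp5g2 to Atp5g3 was 0.016 from P7 to P35 and Cox6b2 to Cox6b1 was 0.030 by genotype (both reversed). The complex II ratio was 1.51 with CPM by library size alone. Leaving out 1 library, members called by genotype were 2 to 4 (4 without wild-type E14 replicate 3). Atp5g2 to Atp5g3 from P7 to P35 was -0.047 to 0.016 (reversed without wild-type P7 replicate 2). Cox4i2 to Cox4i1 by genotype was -0.23 to -0.15, with an unadjusted permutation p under 0.05 without any 1 of 12 libraries (wild-type E14 replicates 1 and 4, E18 2 and 5, P7 3, P35 2 and 4, P70 4, and Setd1a+/- E14 2, P7 4, P35 4 and P70 2; p 0.00467 without Setd1a+/- E14 replicate 2, 0.120 without Setd1a+/- E14 replicate 1). Cox6a2 to Cox6a1 from P35 to P70 was -0.16 to 0.032 (reversed without wild-type P70 replicate 5). Cox6b2 to Cox6b1 by genotype was -0.075 to 0.023 (reversed without Setd1a+/- E18 replicate 2 or wild-type P7 replicate 2), and from P7 to P35 -0.83 to -0.39 (exact p under 0.05 without wild-type P7 replicate 1 or 3 or P35 replicate 5). The cause of these changes was not tested.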
